A study of Homo sapiens with 12 samples.

Results

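WT TYRO3 was compared with TYRO3 ΔGS, a receptor that carries the I449A substitution at its gamma-secretase cleavage site, in TYRO3-depleted WM-266-4 cells. WM-266-4 is an established line from a human melanoma. The comparison used 6 of the 12 RNA-seq libraries of the series, chosen by their titles: 3 of cells transfected with WT TYRO3 and 3 of cells transfected with TYRO3 ΔGS, 1 of each from experiments 1, 2 and 3. All 12 libraries came from cells with a stable lentiviral knock-down of TYRO3, kept in puromycin, transfected with a plasmid of the pEZY-myc-his type and starved of serum overnight before RNA extraction. The other 6 libraries, 3 of TYRO3 ΔADAM, whose juxtamembrane shedding site is mutated, and 3 of GFP, served as reference and as part of the estimate of spread. The labels name a GFP plasmid for that control, whereas the study describes an empty plasmid. All values therefore describe receptors put back by transient transfection into a depleted line in the absence of serum. Nothing in the labels says that the 3 experiments were separate cultures beyond their numbers. The fit has a term for each experiment, so shifts shared by the libraries of an experiment do not enter the p-values. These measure the spread left after construct and experiment, estimated over all 12 libraries.

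TYRO3 is a receptor tyrosine kinase of the TAM family, whose other members are AXL and MERTK and whose ligands are GAS6 and protein S. Like Notch receptors, it can be cut outside the membrane by an ADAM protease, which leaves a membrane-held stub, and then inside the membrane by gamma-secretase, a membrane-embedded protease complex that includes nicastrin and PEN2. The second cut frees the intracellular domain (ICD), which holds the kinase. A ΔGS receptor keeps its stub in the membrane, so WT and ΔGS cells differ in the release of the ICD and share the uncut receptor. The study describes the stub as still able to signal. The comparison therefore cannot tell release of the ICD apart from retention of the stub.

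The isoleucine that the ΔGS construct replaces is residue 449, counted from 1 at the initiator methionine of the 890-residue protein that the TYRO3-201 transcript encodes. Its codon lies at chr15:41570119-41570121 on the plus strand of GRCh38, in exon 10 of 19, and 441 residues follow it. The stretch around that codon is shown because the whole comparison rests on this residue. It is the genomic reference sequence at chr15:41570095-41570145, within the exon and 5′ to 3′, with the codon in capitals.
TYRO3 codon 449: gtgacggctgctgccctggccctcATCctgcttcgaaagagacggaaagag
The estimated counts carry no base calls, so the substitution itself was not checked in the libraries.

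The WT libraries held 18365999 to 23117903 estimated counts and the ΔGS libraries 23486100 to 25155512, ranges that do not overlap. Melanoma markers were present in all 6 libraries, with all 8 listed genes (SOX10, MITF, PMEL, MLANA, TYR, S100B, S100A1 and CSPG4) at a mean of 1 TPM or more and a summed level of 1143 to 2026 TPM with WT and 1169 to 1678 TPM with ΔGS. Of the keratinocyte markers 1 of 6 reached that level (KRT10, with KRT1 and KRT5 at 0 in all 6 libraries), of the fibroblast markers 3 of 7, of the blood cell markers 1 of 6 and of the endothelial markers 1 of 5. ΔGS replicate 3 stood apart from the other libraries. Set against the mean of the other 3 libraries of its experiment, the 3020 tested genes with the shortest main transcripts had a median difference of 0.23 and the 3020 with the longest one of -0.30 (log2 CPM), the longest minus the shortest being -0.53. In the other 11 libraries the same difference ranged from -0.15 to 0.27, the highest being WT replicate 3, which is measured in part against ΔGS replicate 3. Results are therefore also given without ΔGS replicate 3.

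The transfected gene was present at the same order of level with both constructs. TYRO3 (ENSG00000092445, chr15:41557675-41583586) stood at 1687, 988 and 780 TPM in WT replicates 1, 2 and 3 and at 1959, 733 and 824 TPM in ΔGS replicates 1, 2 and 3. The experiment moved the level more than the construct did, since experiment 1 was the highest for both and the 2 groups overlapped. The WT level was 0.861, 1.35 and 0.946 times the ΔGS level in experiments 1, 2 and 3, and the fitted log2 fold change was -0.07 (SE 0.22, 95% interval -0.56 to 0.42, Benjamini-Hochberg adjusted p = 0.968 by the quasi-likelihood test of edgeR). TYRO3 ΔADAM libraries held 1789, 640 and 664 TPM. GFP libraries, which keep the transcript left by the knock-down, held 36.3, 27.7 and 30.2 TPM. A larger share of transfected cells and more transcript per transfected cell cannot be told apart in bulk RNA.

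**Figure D1:**
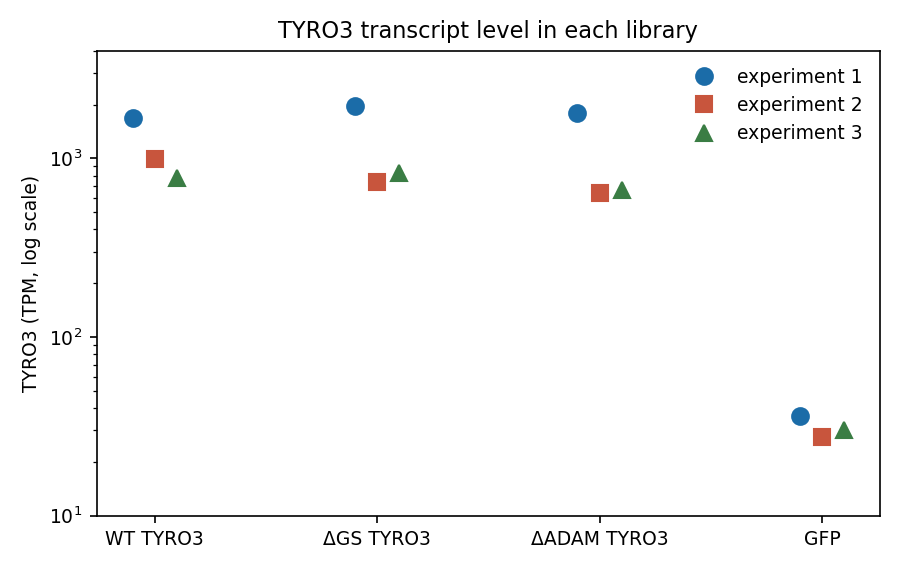
TYRO3 in TPM (log axis) in each of the 12 libraries, by construct on the horizontal axis and by experiment in colour and shape. WT and ΔGS libraries span 733 to 1959 TPM and overlap, and the 3 GFP libraries lie at 27.7 to 36.3 TPM.

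TYRO3-202, a protein-coding transcript, was assigned the largest share of TYRO3 with both constructs. It took 68.9%, 70.8% and 66.1% of the TYRO3 TPM with WT and 70.7%, 77.8% and 66.0% with ΔGS, against 26.4% to 50.5% in the GFP libraries. None of the 7 TYRO3 transcripts tested was called. Their log2 fold changes lay between -0.33 for TYRO3-208 (95% interval -0.99 to 0.33) and 0.44 for TYRO3-204 (95% interval -0.42 to 1.30). The 3 annotated with a retained intron stood at 0.07 to 0.30. Reads of the plasmid can be divided among annotated transcripts that they do not separate, so these values do not show which isoforms the cells made. How the reads were divided was not tested.

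In the edgeR fit no gene met the threshold for a difference between WT and ΔGS. The threshold was a fold over 1.5 and an adjusted p of at most 0.05. Of 15098 genes tested, 0 were called (0% of genes), the smallest adjusted p being 0.935 by edgeR. At an unadjusted p under 0.05 there were 361 genes (2.39%), of which 169 (1.12%) were higher with WT and 192 (1.27%) lower. DESeq2, the tool the study used against its vector control, called 5 genes on the same counts, all lower with WT. Of these, 3 stood at 0 TPM in at least 1 of the 6 libraries. With limma on log2(TPM + 1) the count was 0. DESeq2 and limma gave 302 and 460 genes at an unadjusted p under 0.05. In the 3 libraries of each group, 202 genes were higher in every WT library than in every ΔGS library (1.34%) and 212 were lower in every WT library (1.4%), on the scale of log2(CPM + 0.5). WT lay above ΔGS in all 3 experiments for 1361 genes (9.01%) and below it in all 3 for 1579 (10.5%).

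The sizes of the differences were small where expression was sufficient to measure them. Over all genes tested the median log2 fold change was -0.01, with quartiles at -0.11 and 0.10. The 95% interval reached a median of 0.28 to either side on the log2 scale, or 1.21-fold, and for 10691 genes (70.8%) the whole interval lay within a 1.5-fold change in either direction. Among the 9118 genes with a mean of at least 10 TPM, 94.0% had such an interval and 25 had a fitted fold change over 1.5. For the remaining genes the interval reached past a 1.5-fold change.

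**Figure D2:**
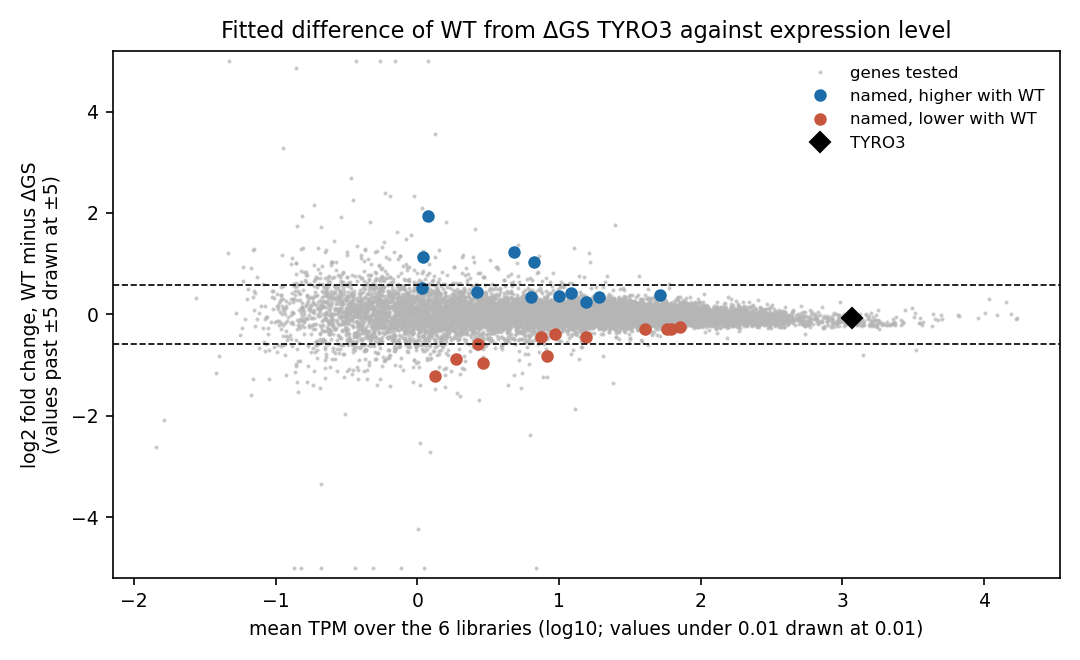
Fitted log2 fold change of WT from ΔGS for the 15098 genes tested (vertical axis, values past 5 in either direction drawn at 5) against the mean TPM over the 6 libraries (log10). Dashed lines mark a fold of 1.5, coloured points the 24 named genes and the black diamond TYRO3. The cloud narrows with expression, and 25 genes with a mean of at least 10 TPM lie outside the lines.

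In the same fit, WT TYRO3 against GFP gave 355 called genes (2.35%) and ΔGS against GFP 708 (4.69%). These 2 comparisons share the GFP libraries, of which replicate 1 is shallow. The ΔGS count includes ΔGS replicate 3, whose length pattern is given above, and no count against GFP was made without that library. The count for the difference between WT and ΔGS itself is the 0 given above. WT against ΔADAM and ΔGS against ΔADAM likewise gave 0 called genes (0%) by edgeR, with 158 and 216 genes at an unadjusted p under 0.05, DESeq2 and limma not being run on them. WT and ΔGS differed by a root mean square of 0.40, 0.40 and 0.55 (log2 CPM) in experiments 1, 2 and 3, while WT libraries of different experiments differed by 0.51 to 0.61 and ΔGS libraries of different experiments by 0.47 to 0.70. In experiments 1 and 2 the difference between WT and ΔGS was thus smaller than that between any 2 replicates of either construct, while in experiment 3 WT lay nearer to ΔGS replicate 2 (0.48) than to ΔGS replicate 3.

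The genes with the smallest unadjusted p are described next as a ranking, with no call. They were taken from protein-coding genes outside the Y chromosome with a mean of at least 1 TPM and with WT on the same side of ΔGS in every experiment. The 12 higher with WT had log2 fold changes of 0.25 to 1.95 and unadjusted p-values of 0.0020 to 0.0088, and the 12 lower had log2 fold changes of -1.23 to -0.26 and unadjusted p-values of 0.00075 to 0.013. Each of the 24 had an adjusted p of 0.935.

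CBFB, the non-DNA-binding partner of RUNX transcription factors, stood at 71.2, 57.6 and 57.7 TPM with WT and 51.5, 42.1 and 28.0 TPM with ΔGS. Every WT library lay above every ΔGS library in TPM, though not in CPM, and the fitted log2 fold change was 0.37 (SE 0.10). Without ΔGS replicate 3, the library with the lowest CBFB level, it was 0.27. ΔADAM libraries had a mean of 57.8 ± 12.5 TPM (SD, n = 3), near the WT level. NOTCH1, itself a receptor that gamma-secretase cuts, measured 21.9, 23.5 and 18.9 TPM with WT and 20.5, 18.8 and 11.8 TPM with ΔGS. The groups overlapped, the log2 fold change was 0.33 (SE 0.11), and without ΔGS replicate 3 it was 0.26. ZBTB14, a BTB-domain zinc finger transcription factor, held 11.1, 10.7 and 11.6 TPM with WT and 8.81, 10.2 and 7.17 TPM with ΔGS, with a log2 fold change of 0.36 (SE 0.11) and no overlap. SHANK3, a scaffold protein best known from synapses, lay at 1.26, 1.34 and 1.26 TPM with WT and at 0.720, 1.03 and 0.863 TPM with ΔGS, again without overlap, with a log2 fold change of 0.52 (SE 0.15).

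Among the other genes on the higher side, PPM1L, a serine/threonine phosphatase, had a log2 fold change of 0.44 (SE 0.13) and BCORL1, a transcriptional corepressor, 0.34 (SE 0.10). PRR12 had 0.25 (SE 0.08). CNN1, calponin, an actin-binding protein of smooth muscle, had the highest value of the 12, 1.95 (SE 0.57), but from a level of 0.602 to 2.85 TPM with WT and 0.043 to 0.747 TPM with ΔGS, where the groups overlapped.

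For 4 of the higher genes the counting itself leaves the value uncertain. ANKHD1-EIF4EBP3 is a readthrough locus (log2 fold change 0.43) whose exons are shared with ANKHD1, which stood at 0.16. AC022826.2 (1.24) overlaps STAU2 (0.03) and UBE2W (0.06) on the same strand, and RBMXL1 (1.02) is a processed copy of RBMX inside KYAT3 (-0.01). ZNF468 (1.12) overlaps ZNF28 (-0.54) and ZNF320 (-0.66), zinc finger neighbours at 0.204 to 3.02 TPM. How reads were divided among the overlapping genes was not tested.

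On the lower side, VARS2, the mitochondrial valyl-tRNA synthetase, measured 14.9, 11.8 and 14.5 TPM with WT and 17.0, 17.7 and 16.7 TPM with ΔGS. No library of one group reached into the range of the other, and the log2 fold change was -0.44 (SE 0.11). It overlaps GTF2H4, at -0.17, on the same strand. TFB1M, which methylates the mitochondrial small-subunit ribosomal RNA, had a log2 fold change of -0.28 (SE 0.09), although its TPM overlapped at 34.6 to 42.1 with WT and 40.0 to 42.1 with ΔGS. NIT2, an omega-amidase, stood at -0.26 (SE 0.08). TDO2, which opens the ring of tryptophan, lay at 5.71, 7.01 and 8.51 TPM with WT and 10.9, 7.63 and 9.51 TPM with ΔGS. Its log2 fold change was -0.82 (SE 0.26), and its difference was largest in experiment 1, at -1.68, against -0.23 and -0.50 in experiments 2 and 3.

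CDKN3, a phosphatase that acts on cyclin-dependent kinases, stood at 52.6, 46.5 and 57.9 TPM with WT and 61.3, 53.7 and 72.4 TPM with ΔGS, with overlap between the groups and a log2 fold change of -0.29 (SE 0.09). PFDN4, a subunit of the prefoldin chaperone, held 58.4, 53.3 and 58.2 TPM with WT and 62.7, 67.3 and 68.5 TPM with ΔGS. Its groups did not overlap, and the log2 fold change was -0.28 (SE 0.10). PIGW, an acyltransferase of GPI anchor synthesis, had -0.45 (SE 0.14), SH2D3A, an SH2-domain adaptor, -0.58 (SE 0.16), SAYSD1 -0.39 (SE 0.12) and NEURL2 -0.87 (SE 0.28).

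The 2 largest values on the lower side again belonged to loci that overlap a neighbour on the same strand. AC116366.3, with the smallest unadjusted p of all 24 genes, had a log2 fold change of -0.96 (SE 0.21) and stood at 1.51, 2.29 and 2.26 TPM with WT and 3.21, 4.48 and 3.58 TPM with ΔGS. It overlaps RAD50, a DNA repair gene, which had the opposite sign at 0.28 (SE 0.11). AC090004.1 (-1.23) overlaps TMEM43 (0.01). Set against ΔADAM, WT had a log2 fold change of -0.80 for AC116366.3 and ΔGS one of 0.16, while for CBFB the values were 0.04 and -0.33. These comparisons share libraries with the ranking, so the values are given side by side only.

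**Figure D3:**
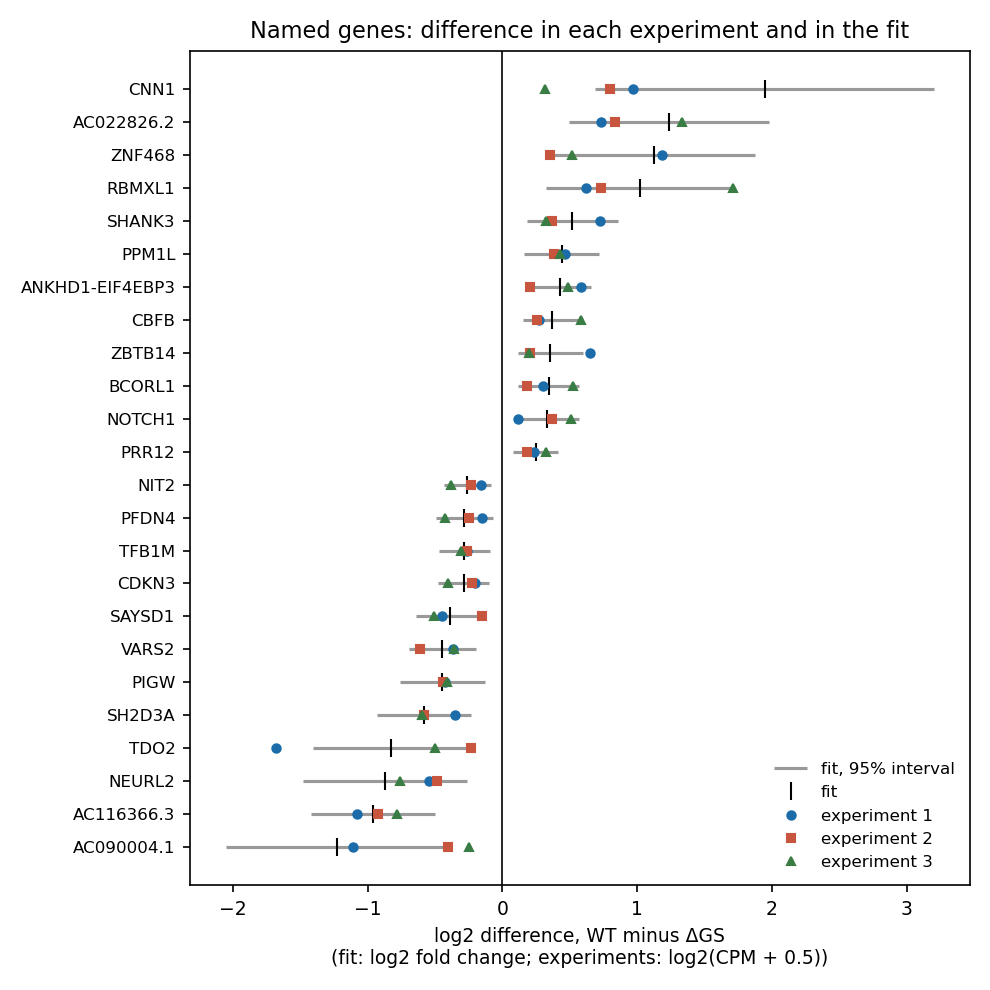
Difference of WT from ΔGS for the 24 named genes: coloured points give experiments 1, 2 and 3 (log2 of CPM + 0.5), black ticks the fitted log2 fold change and grey lines its 95% interval. All points lie on the same side of 0 for a gene because the ranking required it, and for genes of low level such as CNN1 the added 0.5 draws the points towards 0.

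The ranked genes also differed in length. The median length of the main transcript was 5224 bases for the 12 genes higher with WT, 1585 bases for the 12 lower and 2398 bases for all genes tested. ΔGS replicate 3, with its length pattern, is among the libraries that gave the ranking, and the part of that pattern in it was not tested. Without that library all 12 higher genes and 10 of the 12 lower genes had an unadjusted p under 0.05 by edgeR, against 243 of 15325 genes tested. The remaining libraries also gave the ranking, so low p-values of the ranked genes were favoured in advance and are no separate check of it.

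In experiment 3 the difference between WT and ΔGS followed transcript length. With the genes in 5 bins of about equal number, from the shortest to the longest main transcript, the median difference was -0.22, -0.23, -0.09, 0.08 and 0.32 on the log2 scale in experiment 3. It was between -0.02 and 0.00 in every bin in experiments 1 and 2. The fit over all 3 experiments carried a part of this, from -0.10 in the shortest to 0.11 in the longest bin, and without ΔGS replicate 3 the fitted medians lay between -0.01 and 0.01. Whether RNA integrity or library preparation accounts for the pattern was not tested.

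**Figure D4:**
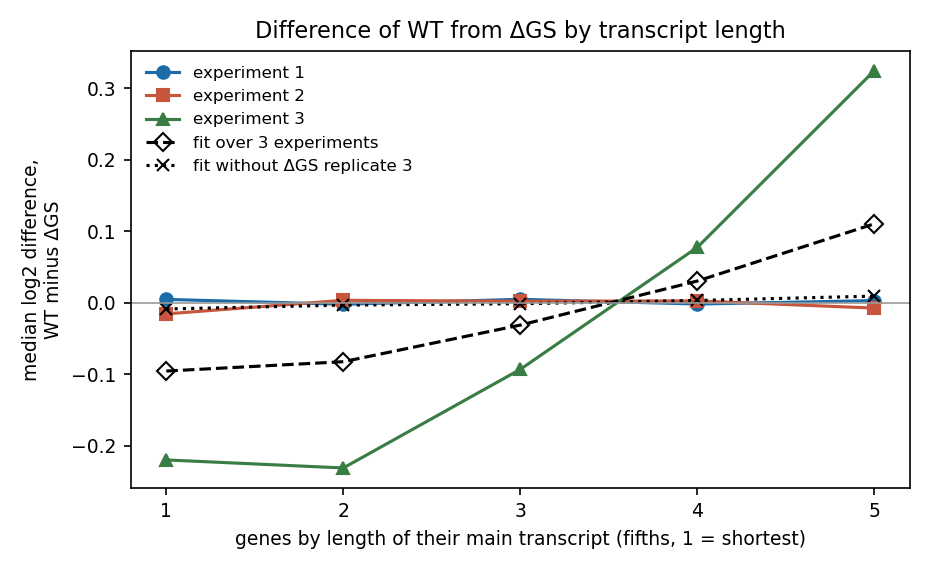
Median log2 difference of WT from ΔGS (vertical axis) over 5 bins of the tested genes ordered by the length of their main transcript, in each experiment, in the fit over the 3 experiments and in the fit without ΔGS replicate 3. Experiment 3 climbs from -0.22 to 0.32, while experiments 1 and 2 and the fit without that library stay near 0.

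Gene groups were then examined: 22 lists with 488 different genes tested. None of these genes was called (0%), 2 were higher and 5 lower with WT at an unadjusted p under 0.05, which is 1.43% of them against 2.39% of all genes, and 403 (82.6%) had an interval within 1.5-fold. List medians ranged from -0.18 to 0.09 on the log2 scale. In 16 of the 22 lists experiment 3 had the median farthest from 0. Without ΔGS replicate 3 the list medians ranged from -0.07 to 0.06, and 18 of 22 were nearer to 0. Without WT replicate 3 they ranged from -0.22 for the cholesterol synthesis genes to 0.08 for the ERK output genes.

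The receptors and proteases of the pathway itself showed no called gene. Of the TAM family and its ligands, AXL had a log2 fold change of 0.03 (95% interval -0.30 to 0.36), MERTK 0.12 (-0.31 to 0.56), the ligand GAS6 -0.06 (-0.63 to 0.51) and the ligand PROS1, protein S, 0.03 (-0.14 to 0.19). All 12 tested genes of gamma-secretase and the sheddases had intervals within 1.5-fold. Nicastrin (NCSTN), a subunit of the complex, stood at 0.09 (-0.07 to 0.24), and the sheddases ADAM10 and ADAM17 at 0.15 (-0.06 to 0.36) and 0.05 (-0.21 to 0.31). Without ΔGS replicate 3 ADAM10 stood at 0.04 and ADAM17 at -0.09. PSENEN, which encodes PEN2, was the member with the smallest unadjusted p, at -0.25 (SE 0.11). It measured 60.1, 63.7 and 68.8 TPM with WT and 63.6, 69.5 and 93.6 TPM with ΔGS, so that ΔGS replicate 3 was the highest and ΔGS replicate 1 lay within the WT range, and its log2 fold change was -0.10 without that library.

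Notch signalling depends on gamma-secretase in the same way as ICD release and was listed for that reason. Its 13 tested genes had a median of -0.03, with 6 above and 7 below 0. The target HES1 stood at -0.05 (-0.25 to 0.14) and HEY1 at -0.10 (-0.40 to 0.19). NOTCH2 measured 29.9, 37.7 and 30.6 TPM with WT and 29.4, 34.7 and 14.3 TPM with ΔGS. Its log2 fold change of 0.33 became 0.10 without ΔGS replicate 3, the library with the low value.

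Signalling output lists were centred close to 0. The ERK output list (21 genes) had a median of 0.01, with SPRED2, an inhibitor of the pathway, at 0.12 (0.05 without ΔGS replicate 3) and MYC at 0.18 (-0.10 to 0.46). The list of STAT3 and SOCS genes (19 genes) had a median of -0.10, which was 0.00 without ΔGS replicate 3. STAT3 itself stood at 0.20 (SE 0.09) and SOCS3, a feedback inhibitor of cytokine receptors, at -0.29 (SE 0.15). Of 20 NF-kB target genes 14 lay below 0 (median -0.09, or -0.06 without ΔGS replicate 3 and 0.03 without WT replicate 3). The subunits NFKB1 and REL stood at 0.28 and 0.32, and at 0.15 and 0.08 without ΔGS replicate 3.

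The interferon-stimulated genes had a median of -0.10, with 25 of 30 below 0 and none called. The medians of the 3 experiments were -0.23, 0.01 and -0.09. IFIT1, an antiviral RNA-binding protein, averaged 61.9 ± 46.3 TPM with WT and 66.7 ± 45.0 TPM with ΔGS (SD, n = 3). These SDs include the shifts between experiments, which the fit takes out. ISG15, a ubiquitin-like modifier, stood at -0.26 (-0.79 to 0.26), or -0.01 without ΔGS replicate 3, and MX1 at -0.13 (-0.81 to 0.55). IRF7, a transcription factor of the interferon response, had a log2 fold change of -1.19 that rested on experiment 3. It measured 5.40, 5.46 and 1.33 TPM with WT and 4.45, 6.15 and 6.06 TPM with ΔGS, and the value became -0.01 without ΔGS replicate 3. RSAD2 had a log2 fold change of -0.36 (SE 0.19), or -0.40 without ΔGS replicate 3. Its differences in the 3 experiments were -0.53, -0.18 and -0.30.

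The amino acid response genes, the ATF4 programme that cells switch on when amino acids run short, differed in sign between experiments. Their median difference of WT from ΔGS was 0.22 in experiment 1, -0.27 in experiment 2 and -0.43 in experiment 3. The fitted median was -0.13 (-0.07 without ΔGS replicate 3 and -0.01 without WT replicate 3), 31 of 36 members lay below 0 and none was called. ATF4 itself measured 588, 310 and 540 TPM with WT and 452, 476 and 924 TPM with ΔGS. CHAC1, a glutathione-degrading enzyme and ATF4 target, differed by 0.87, -1.51 and -1.53 in the 3 experiments, and TRIB3 by 0.64, -0.72 and -1.03. Asparagine synthetase (ASNS) followed the same order with smaller values, 0.28, -0.26 and -0.47. NUPR1, a stress-induced nuclear protein, had the smallest unadjusted p of the list at a log2 fold change of -0.55 (SE 0.25), from levels of 1.17 to 2.81 TPM with WT and 1.28 to 6.68 TPM with ΔGS. It stood at -0.25 without ΔGS replicate 3 and at -0.30 without WT replicate 3.

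Proliferation and growth lists differed little. All 25 mitosis genes had intervals within 1.5-fold, with a median of 0.01. CCNB1 stood at -0.02 (-0.23 to 0.19) and PLK1, a mitotic kinase, at -0.04 (-0.21 to 0.12), and MKI67, a proliferation marker with a long transcript, at 0.28, or 0.09 without ΔGS replicate 3. The DNA replication genes had a median of -0.02, with POLA1 at 0.20 and RFC4 at -0.20, which became 0.07 and -0.08 without ΔGS replicate 3. The MYC target genes had a median of -0.06, or 0.00 without that library. Among them NME1 stood at -0.26 (SE 0.11), or -0.08 without that library. NOP58 stood at -0.15, or -0.10 without that library and -0.05 without WT replicate 3. All 28 cytosolic ribosomal protein genes lay below 0, at -0.23 to -0.11, each with an interval within 1.5-fold. Their medians by experiment were 0.02, 0.01 and -0.55, and the fitted median of -0.18 became 0.01 without ΔGS replicate 3. RPS18 shows this in its levels, 3885, 3646 and 4427 TPM with WT against 3771, 4176 and 5728 TPM with ΔGS. The 13 mitochondrially encoded mRNAs had a median of -0.01. Among them MT-ND4L stood at 0.29 and MT-ATP8 at 0.23, or 0.05 and 0.11 without ΔGS replicate 3.

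Of 24 genes of integrins and focal adhesions 19 lay above 0, with a median of 0.09. The medians by experiment were -0.05, 0.03 and 0.34, and without ΔGS replicate 3 the median was 0.00. ITGB3, the beta chain of the vitronectin receptor, stood at 46.9, 56.1 and 43.9 TPM with WT and 46.9, 52.8 and 21.6 TPM with ΔGS, where the last library alone was low, and its log2 fold change was 0.29 with that library and 0.07 without it. The protrusion and actin genes had a median of -0.03, MYO10 standing at 0.18 and TMSB4X at -0.20, or 0.06 and -0.04 without ΔGS replicate 3. Melanocyte genes had a median of 0.09 with intervals within 1.5-fold for 9 of 17, but their medians by experiment were -0.02, -0.08 and 0.16. The fitted median was 0.06 without ΔGS replicate 3 and -0.10 without WT replicate 3. In this list GPR143 stood at -0.27 and EDNRB at 0.12, or -0.05 and 0.10 without ΔGS replicate 3. SOX10, the lineage transcription factor, averaged 303 ± 79.1 TPM with WT and 271 ± 61.3 TPM with ΔGS (SD, n = 3), at a log2 fold change of 0.11 (-0.12 to 0.35), and MITF stood at 0.20 (-0.29 to 0.68), or 0.08 without ΔGS replicate 3.

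The remaining lists covered stress, metabolism and survival. The ER chaperones had a median of -0.07, with CRELD2 at -0.24 (-0.05 without ΔGS replicate 3) and PDIA6 at -0.10 (-0.06). The cholesterol synthesis genes had a median of -0.05, or -0.01 without ΔGS replicate 3 and -0.22 without WT replicate 3. PMVK stood at -0.14 (-0.03 without ΔGS replicate 3) and NSDHL at -0.13 (-0.07). The hypoxia and glycolysis genes had a median of -0.03, with the hexokinases HK2 at 0.14 (0.03 without ΔGS replicate 3) and HK1 at 0.10 (0.10). The invasive state genes had a median of -0.02, with TNC, an extracellular matrix protein, at 0.20 (0.08 without ΔGS replicate 3) and ZEB1, a transcription factor of the mesenchymal state, at 0.23, which became 0.005 without that library. The BCL2 family and caspase genes had a median of -0.10 (-0.01 without ΔGS replicate 3), with BID at -0.17 (-0.11) and APAF1 at 0.21 (0.07). All 26 lysosome genes had intervals within 1.5-fold. Among them were 2 with an unadjusted p under 0.05, GLA, alpha-galactosidase A, at -0.25 (SE 0.10), and CTSL, cathepsin L, at -0.19 (SE 0.07). CTSL measured 306, 306 and 297 TPM with WT and 315, 337 and 328 TPM with ΔGS, without overlap, and differed by -0.06, -0.14 and -0.37 in the 3 experiments, with a log2 fold change of -0.12 without ΔGS replicate 3.

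**Figure D5:**
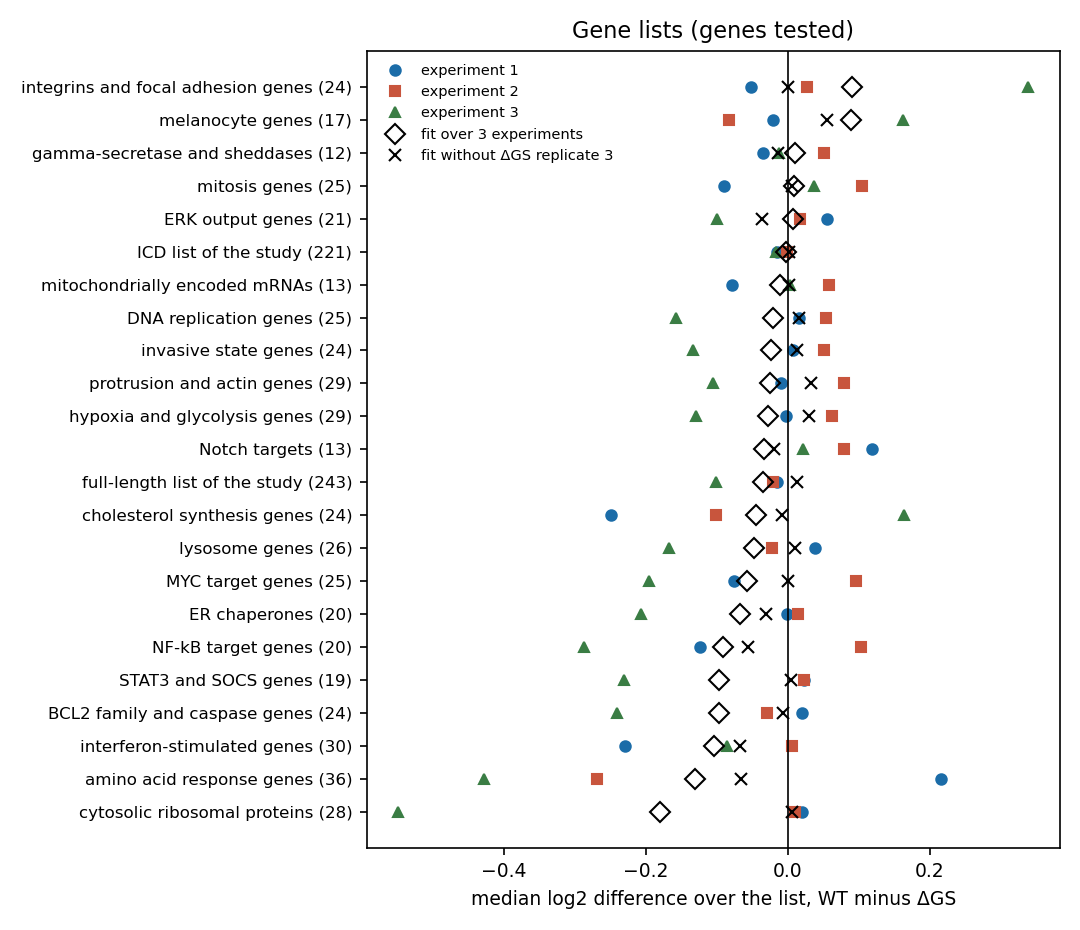
Median log2 difference of WT from ΔGS over the tested genes of each list other than the 5 TAM genes (number tested in brackets), the study's own lists included, with coloured points for experiments 1, 2 and 3, a diamond for the fit over the 3 experiments and a cross for the fit without ΔGS replicate 3. The green triangles of experiment 3 lie outermost in most lists, as for the ribosomal protein genes at -0.55, and the crosses lie closer to 0 than the diamonds in most.

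The study sorted transcripts into those it tied to the ICD and those it tied to the full-length receptor. It did so on these same libraries, so the lists are not independent of the values here. Its ICD rule asked for a difference from the vector control with WT and none with ΔADAM or ΔGS, and its full-length rule for a difference with every construct. Neither rule compared WT with ΔGS directly, and the values here are summed per gene, so the measures are not alike. Of the ICD list 221 genes were tested and 0 were called (0%). Their median log2 fold change was -0.002, 109 lay above and 112 below 0, and the median absolute value was 0.08, against 0.10 for all genes tested. The interval lay within 1.5-fold for 200 of them (90.5%). EHMT2, a histone H3 lysine methyltransferase, had the smallest unadjusted p of the list. It measured 12.9, 17.3 and 17.5 TPM with WT and 14.1, 12.8 and 11.6 TPM with ΔGS, with a log2 fold change of 0.40 (95% interval 0.10 to 0.70), or 0.27 without ΔGS replicate 3. SIPA1L2 stood at 0.25 (0.02 to 0.47), or 0.11 without ΔGS replicate 3. Of the full-length list 243 genes were tested, 0 were called (0%), the median was -0.04, and 83.5% had an interval within 1.5-fold. ZBTB14, described above, had its smallest unadjusted p, and TRIM16L followed at -0.21 (-0.38 to -0.05).

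Single transcripts were measured far less precisely than genes. Of 69182 transcripts tested, 0 were called (0%) by edgeR, with 1672 (2.42%) at an unadjusted p under 0.05, and limma on log2(TPM + 1) called 1. DESeq2 called 346, of which 280 stood at 0 TPM in at least 1 of the 6 libraries. The interval reached a median of 1.51 to either side on the log2 scale, or 2.84-fold, and lay within 1.5-fold for 11.5% of transcripts. Of the transcripts with an unadjusted p under 0.05, 51.0% were at 0 in at least 1 of the 6 libraries, against 28.5% of all tested. WT against GFP and ΔGS against GFP each gave 6 called transcripts (0.00867%). WT against ΔADAM and ΔGS against ΔADAM gave 0 (0%) by edgeR, with 1128 and 1031 transcripts at an unadjusted p under 0.05.

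The transcripts with the smallest unadjusted p were isoforms whose genes, summed over all isoforms, had smaller values. ELP5-215 stood at 4.71, 5.01 and 5.12 TPM with WT and at no more than 0.014 TPM in any ΔGS library, while its gene, a subunit of Elongator, had a log2 fold change of -0.20. CHEK2-203 held 4.16, 7.96 and 3.21 TPM with WT and at most 0.179 TPM with ΔGS, and the checkpoint kinase gene as a whole stood at -0.21. HNRNPC-218 held 12.2, 16.4 and 15.6 TPM with WT and at most 1.13 TPM with ΔGS, against gene totals of 753 to 892 and 816 to 894 TPM. These isoforms were thus present in all 3 WT libraries and low or near 0 in all 3 ΔGS libraries, each with an adjusted p of 1 by edgeR. They were also present in all 3 ΔADAM libraries, at 4.08 to 7.76 TPM for ELP5-215, 2.74 to 5.03 TPM for CHEK2-203 and 13.0 to 20.5 TPM for HNRNPC-218, and in all 3 GFP libraries, at 2.32 to 7.06, 2.08 to 4.57 and 12.4 to 21.2 TPM. On the lower side BECN1-213 stood at 26.1, 31.5 and 32.5 TPM with WT and 40.1, 45.2 and 40.3 TPM with ΔGS, and its gene, which acts in autophagy, at a log2 fold change of -0.03. AHDC1-213 held 0.917, 0.859 and 1.81 TPM with WT and 2.93, 1.68 and 3.67 TPM with ΔGS. SLMAP-205 held 0.192, 0.386 and 1.07 TPM with WT and 3.18, 1.66 and 11.5 TPM with ΔGS. Of the 3, BECN1-213 and SLMAP-205 showed no overlap between the groups, and AHDC1-213 overlapped. The log2 fold changes were -1.31 (SE 0.24) for AHDC1-213 and -3.36 (SE 0.66) for SLMAP-205, against 0.29 and 0.10 for their genes. BECN1-213 was the most precisely measured of the 6, at -0.57 (95% interval -0.82 to -0.33). The ICD list of the study has 230 entries, and the tested transcripts of its genes, 1824 in number, were counted here. Of these, 30 were higher and 34 lower with WT at an unadjusted p under 0.05 by edgeR (3.51%). The share was 2.42% over all transcripts tested and 2.73% over the 1613 tested transcripts of the full-length list. These shares were not tested against each other. The median log2 fold change of the 1824 was 0.01.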

How the data were processed

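Poly(A) RNA of 12 libraries was sequenced, and the authors deposited a table per library of estimated counts and TPM per transcript. Per the labels and the methods of the study, reads were trimmed (PRINSEQ and Trimmomatic 0.33), checked (FastQC 0.11.9) and quantified against Ensembl 96 (GRCh38) with kallisto 0.46.0, which divides a read among transcripts it cannot separate, so that values of overlapping genes are uncertain. Transcripts were matched by identifier to GENCODE 29 (169797 of 188753, with 97.4% to 97.5% of the estimated counts of each library), and the deposited estimated counts and deposited TPM were summed over 35579 genes. Total estimated counts per library stand for its depth. TPM is the level of a transcript scaled for its length and for the library total.

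Estimated counts were rounded and fitted with edgeR 4.0.16 in R 4.3.3 (TMM, filterByExpr by group with a minimum count of 10 and a total of 15, glmQLFit and glmQLFTest) over all 12 libraries with 4 groups and a term for each experiment, which share 1 estimate of spread. Benjamini-Hochberg adjustment ran over all features tested, and a call needed a fold over 1.5 and an adjusted p of at most 0.05. Intervals are 95%, for the fitted log2 fold change, WT minus ΔGS. Differences within an experiment are on log2(CPM + 0.5), and TPM is the scale of all levels. The scripts were tested on simulated data. The experiment number pairs the libraries: it is in the titles, and deviations from the group mean correlated at 0.42, 0.33 and 0.35 between WT and ΔGS libraries of the same number and at -0.34 to -0.11 between those of different numbers. Within a group such deviations cancel out, so the negative values follow in part from the positive ones.

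Named genes are TYRO3, then, in the absence of called genes, the 12 in each direction with the smallest unadjusted p among protein-coding genes with a mean TPM of at least 1 and the same sign in all 3 experiments, the 2 of each list with the smallest unadjusted p, and the 3 transcripts in each direction by the same rule. Genes of the Y chromosome were not named. Genes that the rule took from the cell type marker lists are not all given with values. Other list members are named for their role in the pathway, after their values were seen. The lists and tests were chosen with earlier results of these data known. Alternatives used RLE size factors, DESeq2 1.42.0, no filter, no replicate block, the study's batch term, fewer libraries, and limma 3.58.1 on log2(TPM + 1).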

Additional observations from a re-analysis of the deposited data

How the results depend on the processing

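The count of called genes was 0 under RLE size factors, without a fold threshold, with only the 6 libraries, in experiments 2 and 3 alone, with limma, with no replicate block (0, with 91 genes at an unadjusted p under 0.05 against 361 in the paired fit), with the study's batch term and without GFP replicate 1. It was 5 with DESeq2 and 1 with no filter on low counts, and 0 with any 1 of the 6 libraries left out, although genes at an unadjusted p under 0.05 then numbered 156 (without WT replicate 3) to 863 (without WT replicate 1). Called transcripts were 346 with DESeq2, 1 with limma and 0 in the other settings. The cause of these differences was not tested.

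TYRO3 was not called under any setting. Its log2 fold change turned from -0.07 to 0.039 in experiments 2 and 3 alone and to 0.045 with limma, and ranged from -0.22 to 0.050 with a library left out. The 24 ranked genes kept their sign in all settings that could be fitted, CNN1 being fitted in 13 of 15. The ranking had required the same sign in every experiment, so this was largely set in advance. AC116366.3 was called by DESeq2.

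Of list members named by rule, 7 changed sign in at least 1 setting. With a library left out MERTK ranged from -0.12 to 0.32, PROS1 from -0.049 to 0.079, KRT10 from -0.12 to 0.16, LUM from -0.22 to 0.041, KDR from -0.017 to 0.23 and PECAM1 from -0.12 to 0.59. With limma TP63 stood at -0.024, LUM at 0.027 and PECAM1 at -0.047. Of 435 list medians recomputed, 17 moved by more than the SD of the 3 experiments, 8 of them with limma and 4 without ΔGS replicate 3. The sign of the median turned in at least 1 alternative for 25 of the 29 lists, most often for the ICD list (9 alternatives). Precision followed expression level: the interval lay within 1.5-fold for 94.0% of genes with a mean of at least 10 TPM and for 70.8% of all.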
